A study of Mus musculus with 4 samples.

Results

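The circadian clock genes examined here are 10 of the 55401 genes in the count table: the repressor genes Per1, Per2, Cry1, Cry2, Bhlhe40 and Bhlhe41, the activator genes Clock and Arntl, and the nuclear receptor genes Nr1d1 and Nr1d2. They were chosen by name as the core of the clock, after Bhlhe41 had been selected on its difference between the groups in these same libraries, where it was among the larger increases called by DESeq2. Their differences between the groups are therefore given as a description. How many of them the tests over all genes called is listed below, and nothing is read from those counts. Polyadenylated RNA was sequenced from R1 cells, a line of mouse embryonic stem cells (ESCs), in 2 groups of 2 libraries each: cells labelled Usp28 KO (knockout of the deubiquitinase gene Usp28) and control cells of the same line, labelled WT. Both groups were grown on gelatin in N2B27 medium with PD0325901 (a MEK inhibitor), CHIR99021 (a GSK3 inhibitor) and leukaemia inhibitory factor, known as 2i/LIF. The labels give neither the time of harvest, nor any synchronisation of the cells, nor whether the Usp28 KO cells are 1 clone. Nor do they say that replicates were grown separately, so the spread between libraries may be technical.

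In the mammalian clock, CLOCK and BMAL1 (the product of Arntl) bind E-box sequences as a pair and activate genes that include Per, Cry, Nr1d and Bhlhe family members. PER and CRY proteins then inhibit CLOCK and BMAL1, the NR1D receptors (REV-ERB alpha and beta) repress Arntl through ROR elements, and BHLHE40 and BHLHE41 (DEC1 and DEC2) repress through E-boxes. Undifferentiated mouse ESCs are known to express clock genes without the rhythm that appears once they differentiate, and Bhlhe40 and Bhlhe41 are also known as genes induced by low oxygen.

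The libraries held 17996611 and 18709558 counts in Usp28 KO and 19533608 and 16595196 in control. The targeted gene, Usp28, had 181 and 177 CPM (the count relative to the library total, scaled between libraries by TMM) in the libraries labelled Usp28 KO and 189 and 197 CPM in control, so the gene-level count does not check the label. All 10 ESC markers were expressed, with a summed level of 4498 to 5081 CPM in Usp28 KO and 5479 to 5505 CPM in control. Of 7 fibroblast markers only Thy1 passed the filter on low counts, Postn, Lum and Dcn were at 0, and the list summed to 1.02 to 1.07 CPM in Usp28 KO and 0.563 to 1.07 CPM in control. Primitive endoderm markers summed to 11.7 to 12.3 CPM in Usp28 KO and 8.32 to 12.5 CPM in control, and mesoderm markers to 14.9 to 21.9 CPM in Usp28 KO and 15.05 to 21.1 CPM in control. Trophoblast markers summed to 123 to 152 CPM in Usp28 KO and 129 to 160 CPM in control, nearly all of it from Tfap2c, with Cdx2 and Elf5 at 0 to 2 counts. The neural list summed to 122 to 132 CPM in Usp28 KO and 91.2 to 122 CPM in control, and in it Nes had 53.8 and 43.9 CPM in Usp28 KO and 19.1 and 21.7 CPM in control. The other neural markers did not share that difference: the groups overlapped for Sox1 and Tubb3, Pax6 had 15.7 and 16.1 CPM in Usp28 KO and 17.1 and 16.9 CPM in control, and Neurog2 was at 0. The part of these shifts in the clock genes' differences was not tested.

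E-box sequences stood in the promoters of 3 of the 8 members with an entry in the RefSeq promoter table (GRCm38.p6); Bhlhe40 and Per2 did not match. The motif CACGTG, which reads the same on both strands, was found in Bhlhe41, Cry1 and Per1 in the window of 250 bases before to 50 after the start, that is in 3 of the 12 windows of the 8 genes, and in 7.15% of all 32851 windows in that table. The 3 stretches below are shown because they hold that motif beside repressor genes whose levels are described next; bases that the count table annotates as exon are left out. Capitals mark CACGTG and, in Per1, the ROR element core AGGTCA on the opposite strand. They lie at chr6:145865559-145865670 on the minus strand for Bhlhe41, chr10:85185065-85185304 on the minus strand for Cry1 and chr11:69098699-69098947 on the plus strand for Per1, and run 5′ to 3′ along the gene.
Bhlhe41: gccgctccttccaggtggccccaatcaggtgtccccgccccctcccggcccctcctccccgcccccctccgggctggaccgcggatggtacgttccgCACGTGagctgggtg
Cry1: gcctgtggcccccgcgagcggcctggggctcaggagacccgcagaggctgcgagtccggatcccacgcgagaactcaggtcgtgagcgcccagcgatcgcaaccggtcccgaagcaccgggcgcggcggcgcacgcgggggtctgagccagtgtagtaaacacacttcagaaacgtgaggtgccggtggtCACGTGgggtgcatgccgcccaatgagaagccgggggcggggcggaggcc
Per1: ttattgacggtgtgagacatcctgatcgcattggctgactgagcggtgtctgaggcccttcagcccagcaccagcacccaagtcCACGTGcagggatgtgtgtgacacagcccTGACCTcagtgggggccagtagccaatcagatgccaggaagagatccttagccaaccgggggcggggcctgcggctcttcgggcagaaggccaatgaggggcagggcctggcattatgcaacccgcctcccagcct

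The E-box began 153 bases before the RefSeq start of Bhlhe41, 60 bases before that of Cry1 and 166 bases before the first of the Per1 starts. For Bhlhe41 the count table begins the gene 138 bases further upstream than RefSeq does. For Per1 it begins the gene at 69095217, upstream of the whole stretch shown, so that stretch lies inside Per1 as counted. The core ACGTG, searched on both strands because hypoxia-inducible factors bind elements that contain it, was present in 5 of the 8 genes (5 of 12 windows) and in 19.6% of all windows. It overlaps every CACGTG. Cry2 and Nr1d1 held it without an E-box, and Cry1 held a copy of its own 78 bases before the start. The ROR element core AGGTCA, which NR1D receptors also recognise, was present in 4 of the 12 windows (1 each of Arntl, Clock, Nr1d2 and Per1), against 16.3% of all windows. The Arntl match lay 32 bases after the start, so upstream of the start the count was 3 of 12, against 14.0% of all. The D-boxes TTATGTAA and TTACGTAA were in 0 of the 12, against 1.06%. These matches describe letters in a window and do not show binding.

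Levels per exonic length set Bhlhe40 far above the other clock genes and Per2 at the bottom. Bhlhe40 had 54.7 and 64.9 RPKM (that CPM divided by the exonic length in kilobases) in Usp28 KO and 26.2 and 45.2 RPKM in control. The Bhlhe40 mean over the 4 libraries, 47.7 RPKM, was above the mean of 93.4% of the 15341 genes that passed the filter. The lowest Bhlhe40 library was above the highest library of Cry1, next in the order. The cryptochrome gene Cry1 averaged 12.5 RPKM over the 4 libraries, the period gene Per1 8.32 RPKM and Cry2 7.45 RPKM. By exonic length Cry1 stood apart from both in every library, whereas the ranges of Per1 and Cry2 overlapped.

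Clock, Arntl and the nuclear receptor genes were less abundant per exonic length than Bhlhe40, Cry1, Per1 and Cry2. The repressor genes Bhlhe41 and Per2 were lower still. Clock averaged 4.13 RPKM, Nr1d1 3.94 RPKM and Nr1d2 3.44 RPKM, and the ranges of neighbours among the 3 overlapped. Arntl, at 1.95 to 2.68 RPKM, lay below all libraries of Nr1d2. Bhlhe41 followed at 0.411 to 1.78 RPKM, and its range overlapped that of Per2, at 0.137 to 0.420 RPKM. With the length of the longest annotated transcript in place of the exonic length, Per1 and Cry2 exchanged places and Arntl moved above both Nr1d genes, so the order inside those groups depends on which isoforms the cells use. By that length Cry1 averaged 13.8 RPKM and Cry2 11.8 RPKM, so the gap between them depends on the length used too.

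**Figure D1:**
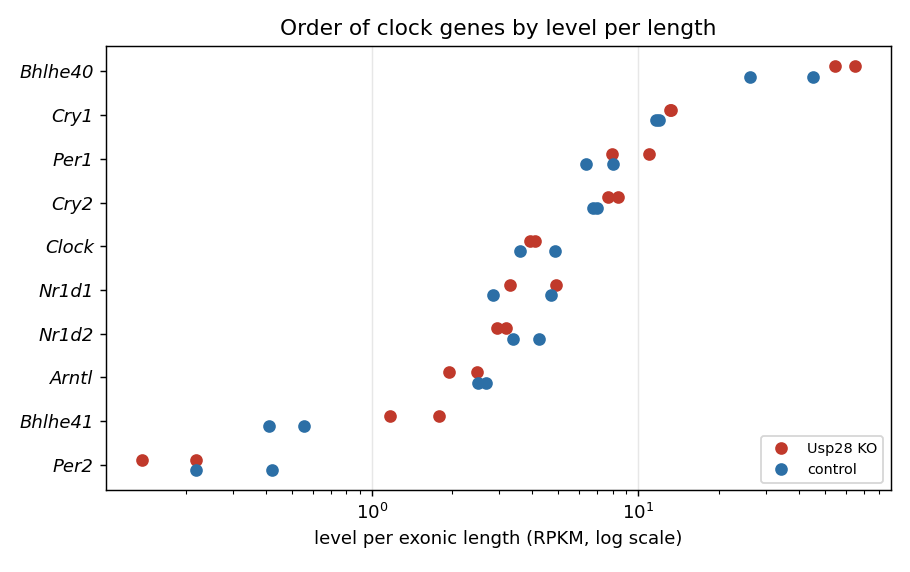
Level of each clock gene per exonic length (RPKM, log scale) in the 2 Usp28 KO libraries (red) and the 2 control libraries (blue), ordered by the mean over all 4. Bhlhe40 lies at 26.2 to 64.9 RPKM, and Bhlhe41 and Per2 lie below every other gene.

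Bhlhe41 (ENSMUSG00000030256, mm10 chromosome 6, 145858243 to 145865558, minus strand) showed the widest difference of the 10. This E-box repressor had 147 and 224 counts, or 7.86 and 11.9 CPM, in Usp28 KO libraries and 54 and 59 counts, or 2.76 and 3.72 CPM, in control libraries. The groups did not overlap: the lower Usp28 KO library, with an exact Poisson 95% interval of 6.64 to 9.24 CPM, stood above the higher control library, with 2.83 to 4.80 CPM. These intervals cover counting error only. Across genes, replicates of a group differed by far more than counting error (chi-square per degree of freedom 28.2 in Usp28 KO and 30.2 in control). Bhlhe41 was selected on this difference, so the separation of the groups is a description and no support for it. The means were 9.91 ± 2.89 CPM in Usp28 KO and 3.24 ± 0.676 CPM in control (SD, n = 2 each). The log2 fold change of Usp28 KO over control was 1.62 ± 0.31 (SE), a 3.07-fold difference, and 0.606% of the tested genes had a higher one. It was 1.64 after a correction for the GC content of transcripts, and between 1.28 and 1.89 with any library left out. Of the Bhlhe41 exonic bases, 1280 (19.0%) are shared with Gm43909 on the opposite strand, and that gene held 16 counts over all 4 libraries. The strand setting of the counting is not known, so it cannot be told how reads from the shared part were counted. The Bhlhe41 level per length carries that limit.

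Bhlhe40 (ENSMUSG00000030103, mm10 chromosome 6, 108660629 to 108666925, plus strand), the paralog of Bhlhe41, was also higher in both Usp28 KO libraries than in either control library. It had 257 and 305 CPM in Usp28 KO and 123 and 213 CPM in control, with means of 281 ± 34.1 CPM in Usp28 KO and 168 ± 63.3 CPM in control (SD, n = 2 each). The control libraries differed from each other by 0.79 on the log2 scale, slightly more than the log2 fold change of 0.75 ± 0.23 (SE; 1.68-fold) between the groups. That value was 1.18 without control replicate 2 and 0.40 without control replicate 1, so the size of the Bhlhe40 difference depends on which control library is used. The Bhlhe40 level per exonic length was 46.7 and 36.5 times that of Bhlhe41 in Usp28 KO libraries and 63.6 and 81.6 times in control libraries. By the length of the longest transcript it was 64.4 and 50.3 times in Usp28 KO libraries and 87.7 and 113 times in control libraries.

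The period genes had log2 fold changes of opposite sign, and for both the groups met or overlapped. Per1 (ENSMUSG00000020893, mm10 chromosome 11, 69095217 to 69109960, plus strand) is known to respond quickly to signals that reset the clock. It had 44.9 and 61.8 CPM in Usp28 KO and 35.7 and 45.02 CPM in control (log2 fold change 0.40 ± 0.20, SE). The lower Usp28 KO library stood just under the higher control library. The Per1 value was 0.25 after GC correction, 0.15 without Usp28 KO replicate 2 and 0.24 without control replicate 1. Per2 (ENSMUSG00000055866, chromosome 1, 91415982 to 91459324, minus strand), the other main period gene, was near the detection limit, with 15 and 24 counts, or 0.802 and 1.28 CPM, in Usp28 KO and 25 and 39 counts, or 1.28 and 2.46 CPM, in control (log2 fold change -0.82 ± 0.48, SE). Its exact Poisson 95% intervals ran from 0.449 to 1.32 CPM in the lower Usp28 KO library and from 1.75 to 3.36 CPM in the higher control library, and the other 2 libraries lay between. The size of the Per2 difference depends on single libraries: it was -0.30 without control replicate 2, -0.53 without Usp28 KO replicate 1 and -1.24 without control replicate 1. The Per1 level per exonic length was 58.2 and 50.2 times that of Per2 in Usp28 KO libraries and 29.0 and 19.04 times in control libraries. By the length of the longest transcript it was 69.9 and 60.3 times in Usp28 KO libraries and 34.8 and 22.9 times in control libraries. Counting error in Per2 carries into both ratios.

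The cryptochrome genes, whose products are the direct inhibitors of CLOCK and BMAL1, were slightly higher in both Usp28 KO libraries. Cry1 (ENSMUSG00000020038, mm10 chromosome 10, 85131700 to 85185064, minus strand) had 43.8 and 44.2 CPM in Usp28 KO and 39.7 and 38.8 CPM in control, a log2 fold change of 0.16 ± 0.17 (SE). Cry2 (ENSMUSG00000068742, chromosome 2, 92403646 to 92434043, minus strand) had 48.4 and 52.9 CPM in Usp28 KO and 44.1 and 42.8 CPM in control, a log2 fold change of 0.22 ± 0.17 (SE), which became 0.13 after GC correction. For neither gene did the groups overlap, while the SE was larger than the log2 fold change of Cry1 and nearly as large as that of Cry2. The Cry1 level per exonic length was 1.71 and 1.58 times that of Cry2 in Usp28 KO libraries and 1.70 and 1.72 times in control libraries, which overlapped. By the length of the longest transcript it was only 1.19 and 1.10 times in Usp28 KO libraries and 1.18 and 1.19 times in control libraries.

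**Figure D2:**
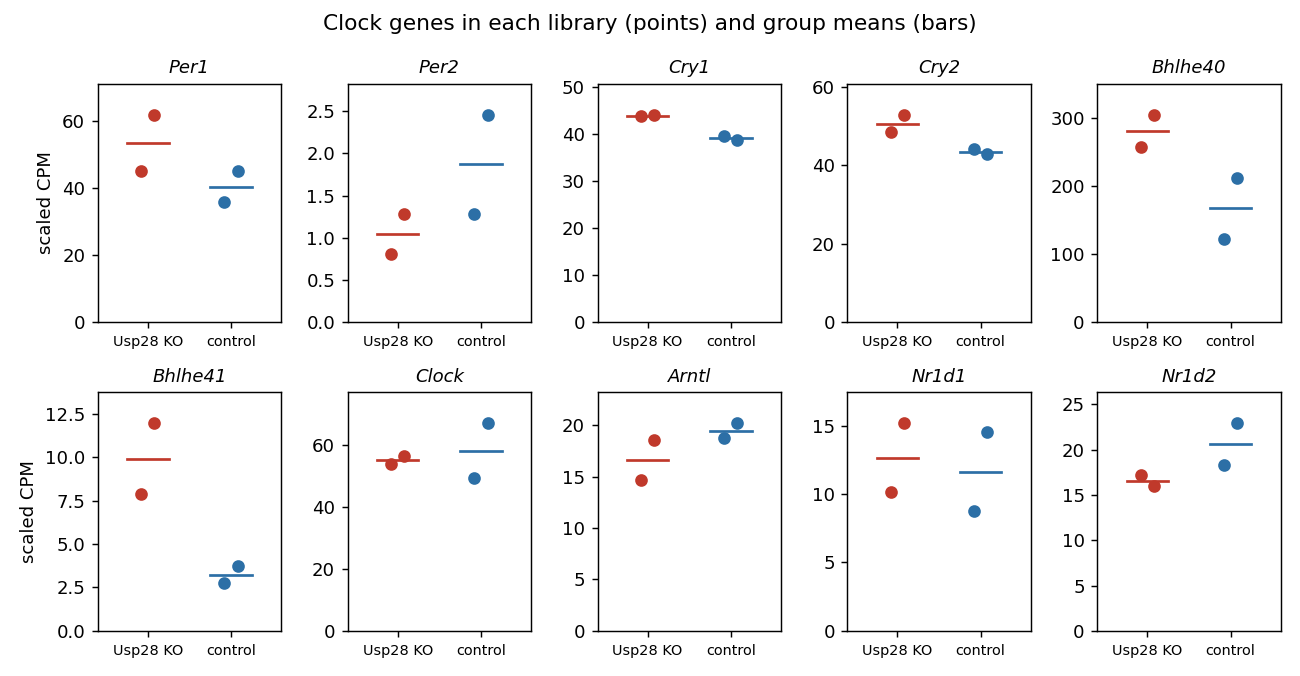
Scaled CPM of each clock gene in the 2 Usp28 KO libraries (red points) and the 2 control libraries (blue points), with group means as bars; each panel has its own axis from 0. The groups are apart for Bhlhe41, Bhlhe40, Cry1, Cry2, Arntl and Nr1d2, and overlap for Per1, Per2, Clock and Nr1d1.

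Of the activator genes, Clock overlapped between the groups and Arntl was narrowly lower in both Usp28 KO libraries. Clock (ENSMUSG00000029238, mm10 chromosome 5, 76209868 to 76304792, minus strand), whose product is described as a histone acetyltransferase, had 53.9 and 56.4 CPM in Usp28 KO, both inside the control range of 49.3 and 66.9 CPM. Its log2 fold change was -0.07 ± 0.19 (SE), 0.07 after GC correction, and from -0.28 to 0.15 with a library left out. Arntl (ENSMUSG00000055116, chromosome 7, 113207465 to 113314126, plus strand) had 14.7 and 18.6 CPM in Usp28 KO and 18.7 and 20.2 CPM in control, and the higher Usp28 KO library was separated from the lower control library by less than the spread within either group (log2 fold change -0.23 ± 0.21, SE). Without Usp28 KO replicate 1 the Arntl value was -0.07, and without Usp28 KO replicate 2 it was -0.41. The level of Clock per exonic length was 2.02 and 1.66 times that of Arntl in Usp28 KO libraries and 1.44 and 1.82 times in control libraries. By the length of the longest transcript it was 1.51 and 1.25 times in Usp28 KO libraries and 1.08 and 1.36 times in control libraries.

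The nuclear receptor genes encode repressors of Arntl. Nr1d1 (ENSMUSG00000020889, mm10 chromosome 11, 98767932 to 98775333, minus strand) had 10.1 and 15.1 CPM in Usp28 KO and 8.75 and 14.5 CPM in control, so the libraries varied within each group more than between the groups (log2 fold change 0.12 ± 0.29, SE; -0.0044 after GC correction). With a library left out, the Nr1d1 value ran from -0.20 to 0.52. Nr1d1 lies opposite Thra, and 263 of its exonic bases, 8.55%, are shared with that gene. The strand setting of the counting is not given in the sources used here, so reads from the shared part cannot be assigned. Nr1d2 (ENSMUSG00000021775, chromosome 14, 18204054 to 18239127, minus strand) had 17.2 and 15.9 CPM in Usp28 KO and 18.3 and 22.9 CPM in control, which did not overlap (log2 fold change -0.31 ± 0.21, SE). The Nr1d2 value was -0.19 after GC correction, -0.15 without control replicate 2 and -0.47 without control replicate 1.

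**Figure D3:**
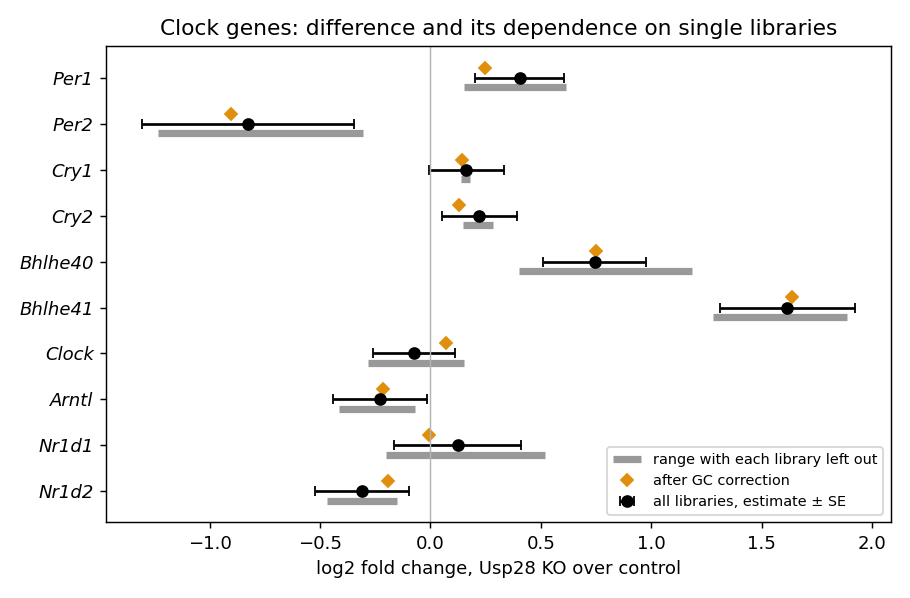
Log2 fold change of each clock gene, Usp28 KO over control: black points with bars are the estimate ± SE from all 4 libraries, orange diamonds the estimate after GC correction, and grey bars the range when each library is left out in turn. Bhlhe41 stays between 1.28 and 1.89, whereas the grey bars of Clock and Nr1d1 cross 0. Bhlhe41 was selected on this difference, so the place of its grey bar is a description only.

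Of the 10 clock genes, 4 lay higher in both Usp28 KO libraries than in either control library, as did 21.4% of the 15341 tested genes, and 2 lay lower in both, as did 20.4%. The median log2 fold change of the 10 was 0.14, and that of all tested genes was -0.0040; without control replicate 1 the median of the 10 was -0.011. By edgeR's quasi-likelihood test with Benjamini-Hochberg adjustment, 0 of the 10 were called at an adjusted p under 0.05, against 0% of all tested genes. At an unadjusted p under 0.05 the edgeR count was 2 higher (Bhlhe40 and Bhlhe41) and 0 lower of the 10. Over all 15341 tested genes it was 1052 higher and 666 lower. DESeq2 called 1 of the 10, Bhlhe41, against 0.929% of the genes with an adjusted p. Bhlhe41 was selected on this contrast, so nothing is read from the edgeR or the DESeq2 counts of members.

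Beyond the members, 44 further clock genes were listed, and 40 passed the filter. By edgeR's quasi-likelihood test with Benjamini-Hochberg adjustment over all genes 0 of these 40 were called, against 0% of all tested genes. DESeq2 also called 0, against 0.929% of the genes with an adjusted p. At an unadjusted p under 0.05 edgeR counted 2 higher and 4 lower of the 40. Over all 15341 tested genes it counted 1052 higher and 666 lower. The median log2 fold change of the 40 was -0.07. In Usp28 KO 5 lay above both control libraries and 8 below both, against the 21.4% and 20.4% of all tested genes.

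Among paralogs of the core genes, the period gene Per3 had 18.6 and 24.0 CPM in Usp28 KO and 13.9 and 18.8 CPM in control (log2 fold change 0.38 ± 0.23, SE; edgeR adjusted p = 0.582). The groups overlapped narrowly, and Per3 was far more abundant than Per2 in all 4 libraries. Npas2, which can stand in for Clock, and Arntl2, a paralog of Arntl, were near the detection limit, with 3 to 14 and 3 to 10 counts in a library. Ciart, whose product also represses CLOCK and BMAL1, had 8.67 and 14.2 CPM in Usp28 KO and 14.3 and 12.3 CPM in control (log2 fold change -0.22 ± 0.26, SE; edgeR adjusted p = 0.816).

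Of the ROR and D-box factors and clock outputs in the list, 7 passed the filter and 0 passed the edgeR test. For 6 of the 7 the groups overlapped. In Usp28 KO 0 lay above both control libraries and 1 below both, against 21.4% and 20.4% of all tested genes. The D-box factor gene Dbp, a classical target of CLOCK and BMAL1, had 8.93 and 9.01 CPM in Usp28 KO, inside the control range of 9.78 and 6.999 CPM (log2 fold change 0.09 ± 0.26, SE; edgeR adjusted p = 0.935). Nfil3, whose product represses through D-boxes, had 4.98 and 6.99 CPM in Usp28 KO and 5.12 and 5.17 CPM in control (log2 fold change 0.22 ± 0.29, SE; edgeR adjusted p = 0.835). The cell cycle kinase gene Wee1, a known clock target in mouse liver, had 74.3 and 79.1 CPM in Usp28 KO and 91.6 and 99.0 CPM in control; the groups did not overlap, and it did not pass the test (log2 fold change -0.31 ± 0.16, SE; edgeR adjusted p = 0.495).

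Genes for enzymes that modify clock proteins held the highest log2 fold change of the further list. Siah2, a ubiquitin ligase gene whose product targets NR1D1, had 9.20 and 9.44 CPM in Usp28 KO and 5.78 and 5.80 CPM in control. The difference was larger than the spread in either group and did not pass the test over all genes (log2 fold change 0.69 ± 0.25, SE; edgeR adjusted p = 0.326). Csnk1e, a casein kinase gene whose product phosphorylates PER proteins, had 202 and 199.9 CPM in Usp28 KO and 148 and 163 CPM in control (log2 fold change 0.37 ± 0.16, SE; edgeR adjusted p = 0.398).

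Of the 10 coregulator genes 0 passed the test, and the groups overlapped for 7. In Usp28 KO 0 lay above both control libraries and 3 below both, against 21.4% and 20.4% of all tested genes. Their log2 fold changes were below 0 for 9 of 10, with a median of -0.24 against -0.0040 over all tested genes; 8 of 10 were below 0 after GC correction, and 8 of 10 with library totals as the scaling. The deacetylase gene Sirt1 had 84.6 and 68.9 CPM in Usp28 KO and 116 and 111 CPM in control (log2 fold change -0.56 ± 0.17, SE; edgeR adjusted p = 0.223). Ncor1, which encodes a corepressor recruited by NR1D receptors, had 360.5 and 466 CPM in Usp28 KO and 510.0 and 593 CPM in control (log2 fold change -0.42 ± 0.18, SE; edgeR adjusted p = 0.424). Among related bHLH-PAS genes, Hif1a and Epas1, which encode the oxygen-regulated subunits of the hypoxia-inducible factors, were lower in both Usp28 KO libraries. Hif1a had 96.4 and 93.9 CPM in Usp28 KO and 124 and 144 CPM in control (log2 fold change -0.50 ± 0.16, SE; edgeR adjusted p = 0.269), and Epas1 had 47.7 and 39.2 CPM in Usp28 KO and 62.4 and 49.5 CPM in control (log2 fold change -0.37 ± 0.19, SE; edgeR adjusted p = 0.503). These factors are regulated mainly through protein stability, which RNA counts do not show.

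**Figure D4:**
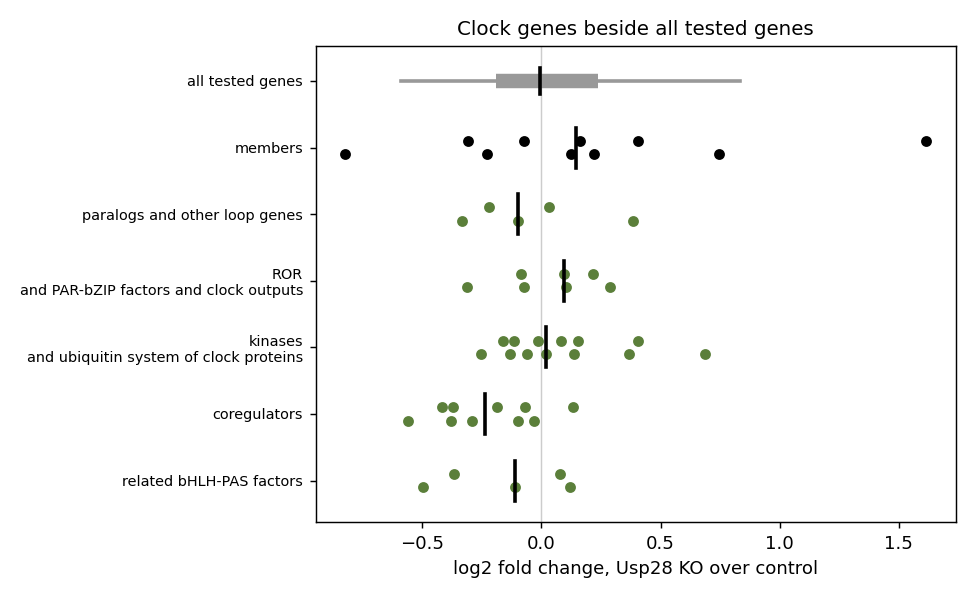
Log2 fold changes, Usp28 KO over control, of the 10 clock genes (black points) and of 40 further clock genes by group (green points), with medians as vertical bars. For all 15341 tested genes the thick bar spans the 25th to 75th percentile (-0.19 to 0.24) and the thin line the 5th to 95th (-0.59 to 0.83); the members Bhlhe41 and Per2 lie outside that line.

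The genes whose pattern over the 4 libraries was most like that of Bhlhe41 were Kif1a, Fos, Nxph4, Ltbp3 and Espn. Likeness was the root mean square difference of log2 CPM centred over the libraries. It was taken over 10069 other genes averaging at least 5 CPM, with genes that bear predicted or clone names left out. The values of these 5 ran from 0.170 for Kif1a to 0.209 for Espn. Kif1a, which encodes a neuronal kinesin, had 9.63 and 10.6 CPM in Usp28 KO and 2.82 and 3.59 CPM in control. Fos, an immediate early gene, had 10.4 and 15.7 CPM in Usp28 KO and 3.17 and 6.05 CPM in control. Nxph4 had 9.26 and 11.4 CPM in Usp28 KO and 3.58 and 4.79 CPM in control, Ltbp3 had 14.0 and 22.4 CPM in Usp28 KO and 4.71 and 9.14 CPM in control, and Espn had 10.8 and 19.7 CPM in Usp28 KO and 4.25 and 7.63 CPM in control. In all 5 the Usp28 KO libraries stood above the control libraries. The measure includes the difference between the groups on which Bhlhe41 was selected. Among the clock genes Bhlhe40 was the nearest to Bhlhe41, at 0.427, followed by Per1 at 0.589, and Per2 was the farthest, at 1.17.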

How the data were processed

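Per the submitters' processing notes, HISAT2, featureCounts, DESeq2 and mm10 were used; the sources used here give no versions, strand setting, treatment of multiply mapping reads or annotation release. The values deposited are unnormalised read counts by gene in 4 libraries. Symbols came from GENCODE M21 by identifier without version (55141 of 55401 matched, all 10 members among them), promoters from RefSeq (GRCm38.p6).

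In R 4.3.3, edgeR 4.0.16 compared Usp28 KO with control over all genes: filterByExpr (minimum count 10, minimum total 15; 15341 genes kept), TMM scaling, robust quasi-likelihood fit, Benjamini-Hochberg adjustment, threshold 0.05. CPM uses the filtered, TMM-scaled totals; SEs derive from the F statistics. DESeq2 1.42.0 ran on the whole table with its defaults. GC correction used offsets from a spline with 5 degrees of freedom, since GC trends differed between libraries (rank correlation 0.044 and 0.37 in Usp28 KO replicates 1 and 2, 0.013 and -0.38 in control). The fit was also run on simulated counts, which held no GC trend, so that run does not cover the trends seen here. Likeness used a pseudocount of 0.1 CPM.

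Members, lists and tests were chosen with earlier results of these data known. The rule for named genes took all members, Usp28, 5 further loop genes (Arntl2, Npas2, Per3, Ciart, Dbp), the 2 with the smallest p in each group of the further list, and the 5 most like Bhlhe41.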

Additional observations from a re-analysis of the deposited data

How the results depend on the processing

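Over 11 alternatives, Bhlhe41, Bhlhe40, Per1, Cry1 and Cry2 kept a positive log2 fold change and Per2, Arntl and Nr1d2 a negative one; for genes whose groups do not overlap, leaving out a library cannot turn the sign. Clock and Nr1d1 changed sign under GC correction or with a library left out. Counts of calls over all genes moved from 0 higher and 0 lower by edgeR to 79 and 48 by DESeq2, 24 and 5 with library totals, 204 and 118 without the filter, 965 and 716 with the replicate block, and 1612 and 1575 with GC correction and the replicate block; with a library left out they ran from 49 to 146 higher and from 31 to 200 lower. DESeq2 size factors and GC correction alone left them at 0. Of the 40 further clock genes, 7 were called with the replicate block, against 965 higher and 716 lower of all 15341 tested genes. With GC correction and the block 14 of the 40 were called, against 1612 higher and 1575 lower of the same 15341. Under every other alternative that kept all 4 libraries 0 of the 40 were called. Nothing is read from these counts. The labels do not say that same-numbered libraries share a batch; their deviations correlated at r = 0.354 across genes. Library totals shifted the median of all genes to 0.057. Low counts limit Per2, Npas2 and Arntl2.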
